A study of Mus musculus with 6 samples.

Results

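The Wnt feedback inhibitors described here are 10 genes, Notum, Nkd1, Wif1, Axin2, Rnf43, Znrf3, Apcdd1, Dkk2, Dkk3 and Sfrp1, whose products damp Wnt signalling at the ligand, at the receptor or inside the cell. They were chosen by symbol with earlier results of these data known, so their contrasts with all genes below are descriptive and give no independent support. All 10 were found among the 21374 genes of the deposited table. The RNA came from distal colon beside tumours of male C57BL/6 mice, the tumours themselves having been cut away. Both groups were given azoxymethane, a colon carcinogen, on day 0 when 6 weeks old. They then drank 1.5% dextran sulfate sodium, an agent toxic to the lining of the colon, in 3 cycles, each with 4 days of the agent and 14 of water. Colon was collected on day 81, and the age is given as 18 weeks. The labels set the groups apart by genotype alone: 3 libraries were labelled wild type and 3 were labelled Otud1-/-, a name for loss of the deubiquitinase gene Otud1. How the deletion was made, and whether it acts in all cells, is not stated. Separate mice are not named for the libraries, and the p-values therefore cover the spread among the libraries alone, which may be technical.

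Wnt proteins bind Frizzled receptors with the co-receptors Lrp5 and Lrp6 and thereby spare beta-catenin from the destruction complex of Axin, Apc and Gsk3, so that beta-catenin can switch on genes with TCF and LEF factors. In the colon this pathway keeps stem cells at the crypt base, and its activation by mutation of Apc or beta-catenin is the usual first step of colon tumours, in mice given azoxymethane mostly through beta-catenin. Several targets of the pathway encode its own brakes, so their transcripts are widely read as a gauge of the pathway. Secreted brakes act on Wnt proteins or their receptors, membrane-bound brakes remove or block receptors, and intracellular brakes act on Dishevelled or on beta-catenin.

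RefSeq promoter windows (GRCm38.p6, 250 bases before to 50 after the start site, 300 in all) were matched for 5 of the 10 genes, 6 windows in all with 2 of Rnf43. Those of Axin2 (chr11:108920099-108920398, plus strand, 70% G or C) and Dkk2 (chr3:132085042-132085341, plus strand, 57.7% G or C) are shown as examples. They are not the pair most alike in their order over the libraries. Nkd1, Wif1 and Rnf43, which also had windows, matched Axin2 in all 15 pairs of libraries, and Dkk2 in 14. The likeness of the windows of Axin2 and Dkk2 was not measured. Capitals mark GGGCGG, which is the core of the GC box bound by Sp1. They also mark the TATA box motif TATAAA.
Axin2: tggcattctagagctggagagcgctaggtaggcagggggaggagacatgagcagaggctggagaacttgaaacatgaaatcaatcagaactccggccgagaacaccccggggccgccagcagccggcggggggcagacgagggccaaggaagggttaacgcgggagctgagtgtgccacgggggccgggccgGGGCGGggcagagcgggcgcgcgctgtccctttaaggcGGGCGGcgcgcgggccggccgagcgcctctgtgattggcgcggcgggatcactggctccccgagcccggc
Dkk2: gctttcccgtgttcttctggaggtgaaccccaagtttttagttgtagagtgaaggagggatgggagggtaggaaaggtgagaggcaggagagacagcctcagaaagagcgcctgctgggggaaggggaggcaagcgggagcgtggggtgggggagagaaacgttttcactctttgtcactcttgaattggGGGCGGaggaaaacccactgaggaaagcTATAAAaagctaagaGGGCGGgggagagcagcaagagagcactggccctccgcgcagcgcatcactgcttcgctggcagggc
On either strand, GGGCGG lay in 3 of the 6 windows (Axin2, Dkk2 and Wif1), against 35.7% of 32851 promoters, and TATAAA in 2 (Dkk2 and Wif1), against 13.6%. The TATAAA of Dkk2 began 32 bases before the start site, and its GGGCGG copies began 60 and 17 bases before it. In Axin2 GGGCGG began 58 and 20 bases before the start site. The motif CTTTGAT, which TCF and LEF factors bind, was in 0 of the 6 windows on either strand, against 3.73% of all promoters, which says only that these letters are not in these windows. None of these motifs overlapped another in the sequences shown.

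Otud1 itself went against the labels. Its normalised read counts (reads of a gene divided by a scaling factor of the library) were 110.8, 45.14 and 48.95 across wild type 1 to 3 by label, against 140.8, 149.6 and 207.9 across Otud1-/- 1 to 3. It was thus higher in every library labelled Otud1-/- (log2 change 1.37 ± 0.35 SE, limma, Benjamini-Hochberg adjusted p = 0.0934). With wild type 1 and Otud1-/- 1 left out the difference passed the test (1.89, limma, adjusted p = 0.00495). All directions below are those between the libraries as labelled, given as Otud1-/- minus wild type. Libraries held 15300937 to 19406407 reads. All 16 measured epithelial markers, among them the colonic Cdx1, Cdx2 and Krt20, had reads in every library. Wild type 1 (-86.45) and Otud1-/- 1 (83.3) lay apart on the leading principal component, which held 38.8% of the variance, from the other 4 libraries (-25.76 to 28.22). That component also set the labels apart, with wild type 2 and 3 at -21.98 and -25.76 and Otud1-/- 2 and 3 at 28.22 and 22.66.

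The question of the comparison is whether the brakes of Wnt signalling differ between the labelled genotypes in tumour-adjacent colon. All 10 genes had higher means in the libraries labelled Otud1-/-. Their log2 changes ran from 0.70 for Sfrp1 to 3.81 for Notum, and the median was 2.17 against 0.02 over all 21281 genes tested. None of the 10 was called at an adjusted p under 0.05 (limma, Benjamini-Hochberg), where 0.282% of all tested genes were called higher, and 3 had an unadjusted p under 0.05 (Znrf3, Dkk3 and Sfrp1), as did 9.50% of all genes in the same direction. Count models were not run. In 8 of the 10 every Otud1-/- library lay above every wild type library, as in 13.0% of all genes tested. The libraries within a label also lay far apart for most of these genes: wild type 1 was the lowest library for 9 of the 10 and Otud1-/- 1 the highest for 9.

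**Figure D1:**
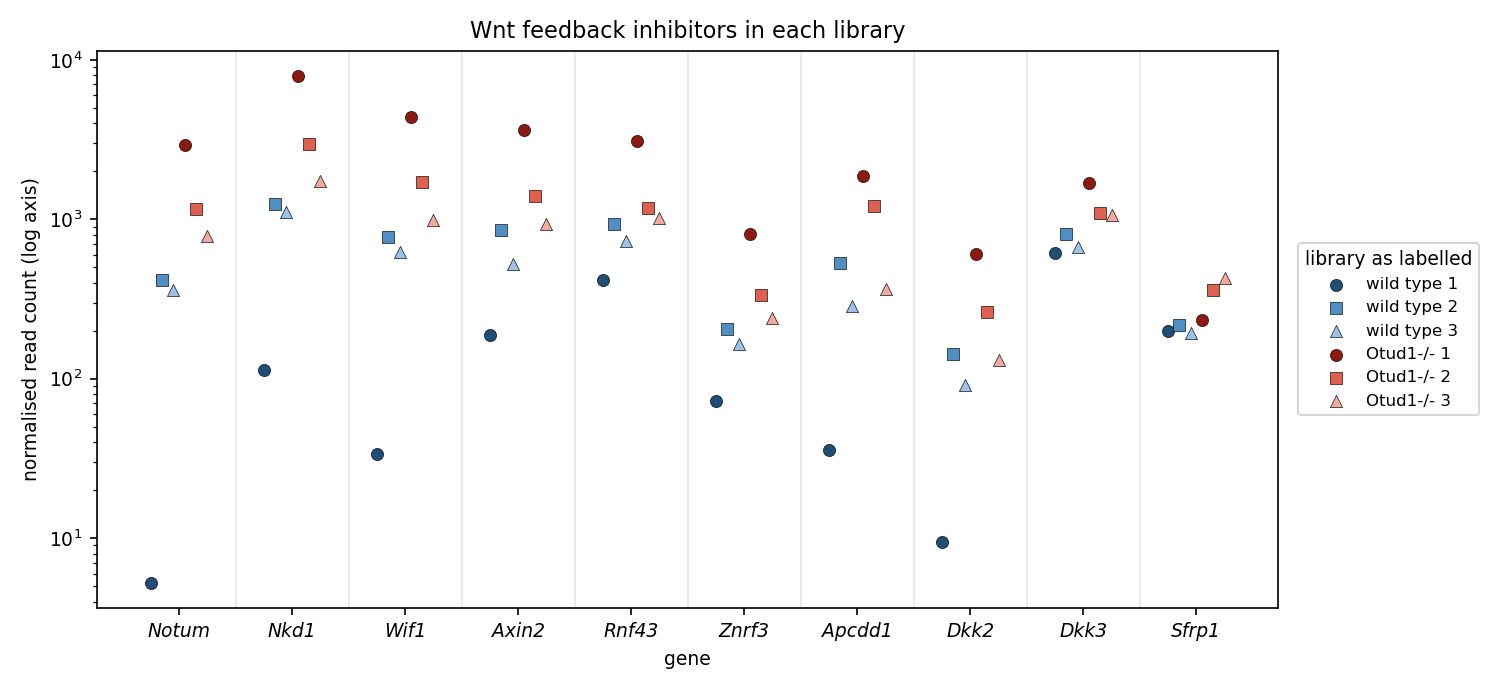
Normalised read count (log axis) of the 10 Wnt feedback inhibitors in each of the 6 libraries, 1 point per library, blue for wild type and red for Otud1-/- as labelled. Wild type 1 (dark blue circle) is lowest and Otud1-/- 1 (dark red circle) highest for every gene but Sfrp1, and only Apcdd1 and Dkk2 have labels that overlap.

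Of the secreted inhibitors, Notum, a carboxylesterase that removes the lipid from Wnt proteins, spanned the widest range. Notum (ENSMUSG00000042988.10, chromosome 11, 120653788 to 120661175, minus strand) had normalised read counts of 5.27, 418.5 and 360 across wild type 1 to 3, against 2927.1, 1156.5 and 780.1 across Otud1-/- 1 to 3. Wild type 1 was nearly devoid of it, and the nearest libraries of the 2 labels, wild type 2 and Otud1-/- 3, were 1.86-fold apart. Means were 261.2 ± 223.6 (SD, n = 3) and 1621.2 ± 1146.4, and the log2 change was 3.81 ± 1.92 SE (95% interval -1.24 to 8.87, limma, adjusted p = 0.361). An exact permutation test (two-sided) gave p = 0.1, and no smaller value is possible with 3 libraries a label. Its antisense neighbour Notumos shares 708 exon bases with it and Myadml2os 210, and since the strand setting of the counting is not given in the sources used here, reads of these genes cannot be told apart.

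Wif1 (chromosome 10, 121033960 to 121100650), a secreted protein that binds Wnt proteins, had 33.75, 777.8 and 622 normalised reads across wild type 1 to 3, against 4370.1, 1705.5 and 989 across Otud1-/- 1 to 3. The labels did not overlap, and within wild type the highest library was 23-fold above the lowest. The log2 change was 2.92 ± 1.46 SE (95% interval -0.93 to 6.78, limma, adjusted p = 0.359). Dkk2 (chromosome 3, 132085292 to 132180304), a Dickkopf protein that binds the Wnt co-receptors, had 9.49, 143.9 and 90.75 across wild type 1 to 3, against 606.7, 261 and 131.2 across Otud1-/- 1 to 3. Here the labels overlapped, since wild type 2 lay above Otud1-/- 3 (log2 change 2.41 ± 1.18 SE, limma, adjusted p = 0.342; exact permutation p = 0.2).

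Dkk3 and Sfrp1 varied far less. Dkk3 (chromosome 7, 112116017 to 112159057), a member of the Dickkopf family that does not bind the Wnt co-receptors the way its relatives do, had 611.8, 803.2 and 667.9 normalised reads across wild type 1 to 3, against 1680.3, 1089.0 and 1061.6 across Otud1-/- 1 to 3. Every Otud1-/- library was above every wild type library, the nearest pair by 1.32-fold, and the spread within wild type was 1.31-fold. Its log2 change of 0.85 ± 0.19 SE (95% interval 0.42 to 1.29) had the smallest p of the 10 genes but missed the threshold (limma, adjusted p = 0.0724). It passed after scaling to the total of the table (1.06, limma, adjusted p = 0.0487), where 1.47% of all genes were called higher, and to the epithelium list (1.21, limma, adjusted p = 0.00562), where 4.23% were.

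Sfrp1 (chromosome 8, 23411502 to 23449632), a secreted Frizzled-related protein that binds Wnt proteins, was the exception in its order of libraries. It had 199.4, 217.3 and 194.8 normalised reads across wild type 1 to 3, against 234.7, 362.2 and 429.9 across Otud1-/- 1 to 3. Wild type 1 was level with the other wild type libraries, and Otud1-/- 1, the highest library for the other 9 genes, was the lowest of its label. The log2 change was 0.70 ± 0.22 SE (95% interval 0.20 to 1.21, limma, adjusted p = 0.14), and without Otud1-/- 1 it was 0.95 and passed the test (limma, adjusted p = 0.0289), where 0.682% of all genes were called higher. It also passed after scaling to the epithelium list (1.05, limma, adjusted p = 0.0312).

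Of the membrane proteins, Rnf43 and Znrf3 are related ubiquitin ligases that clear Frizzled receptors from the cell surface and are themselves cleared when R-spondins bridge them to Lgr receptors. Rnf43 (chromosome 11, 87662722 to 87735539) had 414.5, 937.7 and 730.1 normalised reads across wild type 1 to 3, against 3075.5, 1175.6 and 1012.2 across Otud1-/- 1 to 3. Znrf3 (chromosome 11, 5276324 to 5444847) had 72.78, 204.1 and 165.2 across wild type 1 to 3, against 808.1, 335.2 and 239.2 across Otud1-/- 1 to 3. Both kept the labels apart, though for Rnf43 the nearest libraries differed by a factor of only 1.08 and for Znrf3 by 1.17. The log2 changes were 1.23 ± 0.53 SE for Rnf43 (limma, adjusted p = 0.293) and 1.57 ± 0.58 SE for Znrf3 (limma, adjusted p = 0.219). Per kilobase of exon, Rnf43 stood at 105.8 ± 40.2 (SD, n = 3) normalised reads in wild type and Znrf3 at 18.7 ± 8.55, so Rnf43 was the more abundant of the pair in both labels (267.5 ± 174.9 and 58.4 ± 38.6 in Otud1-/-). Apcdd1 (chromosome 18, 62922231 to 62961179), a membrane protein that binds Wnt proteins and their co-receptors, had 35.86, 533.3 and 286.5 normalised reads across wild type 1 to 3, against 1866.3, 1217.2 and 366.3 across Otud1-/- 1 to 3. Its labels overlapped, with wild type 2 above Otud1-/- 3, and its log2 change was 2.40 ± 1.26 SE (limma, adjusted p = 0.378).

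Inside the cell, Axin2 is a scaffold of the destruction complex and a common target of beta-catenin across tissues, and Nkd1 is a Dishevelled-binding protein. Axin2 (ENSMUSG00000000142.15, chromosome 11, 108920349 to 108950783) had 188.8, 854.9 and 522.1 normalised reads across wild type 1 to 3, against 3649.0, 1393.9 and 935.5 across Otud1-/- 1 to 3. Wild type 2 and Otud1-/- 3 nearly touched, 1.09-fold apart, while Otud1-/- 1 was 19.3-fold above wild type 1. The log2 change was 1.94 ± 0.78 SE (95% interval -0.07 to 3.95, limma, adjusted p = 0.269). Nkd1 (chromosome 8, 88521354 to 88594884) had 113.9, 1242.4 and 1103.3 across wild type 1 to 3, against 7903.0, 2945.2 and 1735.7 across Otud1-/- 1 to 3. It had the most normalised reads of the 10 genes in every library but wild type 1, with a log2 change of 2.67 ± 1.20 SE (limma, adjusted p = 0.321).

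Per kilobase of exon, the order of the genes in the libraries labelled wild type ran from Dkk3 (206.7 ± 29.3 normalised reads, SD, n = 3), Wif1 (196.9 ± 161.7) and Nkd1 (179.9 ± 135.0) down to Dkk2 (21.97 ± 18.3) and Znrf3. The only neighbours in this order that differed by more than the larger of their SDs were Sfrp1 (46.6 ± 2.72) and Apcdd1 (22.1 ± 19.3). In the libraries labelled Otud1-/- Wif1 (970.3 ± 734.1), Nkd1 (920.3 ± 717) and Notum (673.3 ± 476.1) led, ahead of Dkk3 (380.2 ± 104.1) and Axin2 (361.9 ± 263.8). There the only such step lay between Rnf43 (267.5 ± 174.9) and Dkk2 (89.9 ± 66.4).

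Most of these genes varied widely among libraries of the same label. The pooled SD within labels on the log2 scale was 2.53 for Notum, 1.93 for Wif1, 1.58 for Nkd1 and 1.06 for Axin2, against a median of 0.20 over the 13154 genes with a mean of at least 50 normalised reads. For 8 of the 10 genes it lay above the 90th percentile of those genes (from the 95.7th for Rnf43 to the 99.9th for Notum), and it lay at the 72.3rd for Dkk3 and the 75.7th for Sfrp1.

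**Figure D2:**
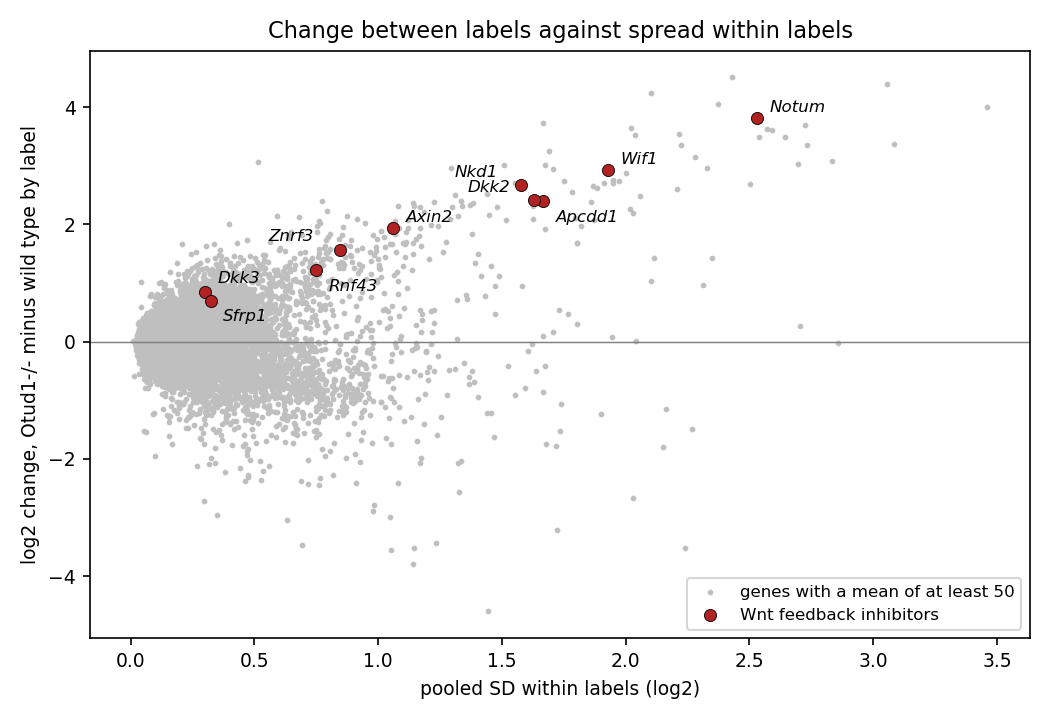
Log2 change between labels (vertical axis) against the pooled SD within labels on the log2 scale (horizontal axis), 1 grey point for each gene with a mean of at least 50 normalised reads and red points for the Wnt feedback inhibitors. Notum, Wif1, Nkd1, Dkk2 and Apcdd1 sit far to the right, with SDs above 1.5, while Dkk3 and Sfrp1 lie among the bulk of the genes.

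Wild type 1 and Otud1-/- 1, which lay apart over the whole table, are also the ends of the range for 9 of the 10 genes, so leaving both out narrows both the change and the spread by construction. In the other 4 libraries all 10 changes stayed positive with a median of 0.77, and the Notum change was 1.29 ± 0.20 SE (95% interval 0.86 to 1.72), which passed the test (limma, adjusted p = 0.00576). Sfrp1 also passed (0.94 ± 0.19 SE, limma, adjusted p = 0.0286). These were 2 of 10 called, where 0.976% of all genes were called higher, and each label then had only 2 libraries. At an unadjusted p under 0.05 (limma) there were 8 of 10, all but Apcdd1 and Dkk2, where 7.10% of all genes were higher. Nkd1 had a change of 0.95 (limma, adjusted p = 0.125), Wif1 of 0.90 (0.211), Axin2 of 0.77 (0.352) and Rnf43 of 0.40 (0.291). The fitted change of Notum was thus 2.44-fold in these 4 libraries and 14.1-fold in all 6, and that of Sfrp1 was 1.91-fold and 1.63-fold.

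**Figure D3:**
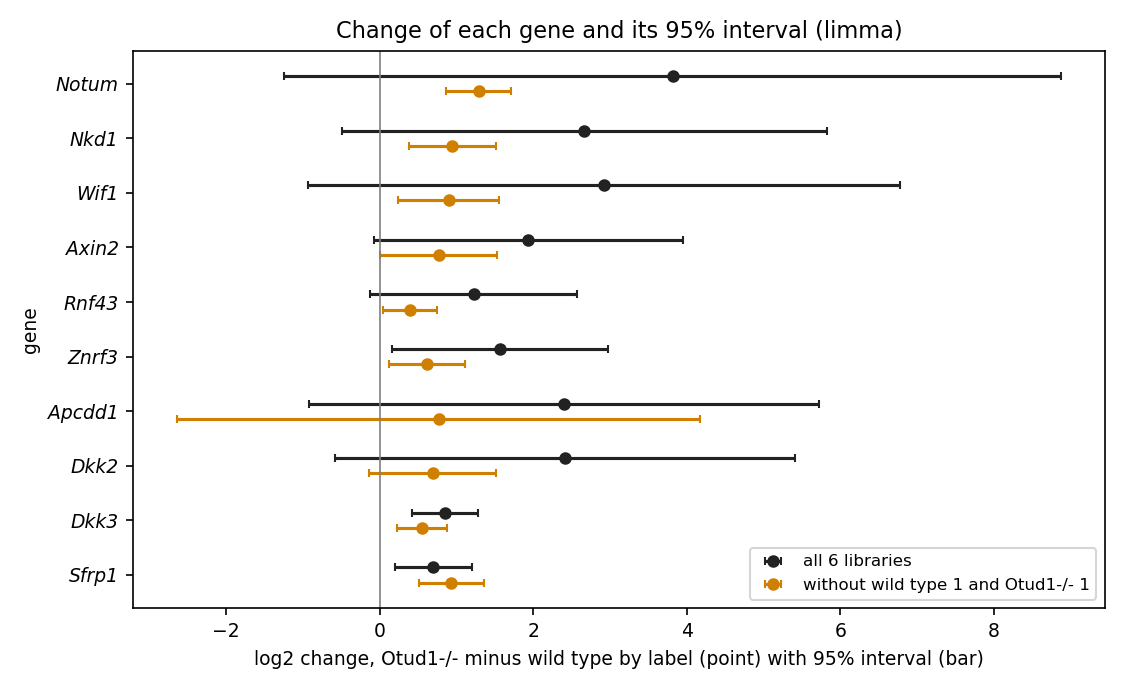
Log2 change of each Wnt feedback inhibitor (points, Otud1-/- minus wild type by label) with its 95% interval from limma (bars), in black for all 6 libraries and in orange without wild type 1 and Otud1-/- 1. With all 6 libraries only the intervals of Znrf3, Dkk3 and Sfrp1 lie above 0, and without the pair of libraries all do except those of Apcdd1 and Dkk2.

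Most of the inhibitors ranked the libraries alike. From low to high the order was wild type 1, 3 and 2, then Otud1-/- 3, 2 and 1 for 7 of the 10 genes (Notum, Nkd1, Wif1, Axin2, Rnf43, Znrf3 and Dkk3), an order found in 1.47% of the 13154 genes with a mean of at least 50. Apcdd1 and Dkk2 differed from it by 1 of 15 pairs of libraries. Sfrp1 matched Axin2 in 11 of the 15 pairs and matched the summed smooth muscle markers in 14, which 2.11% of genes do. The 7 genes matched the smooth muscle sum in 12 pairs, and Apcdd1 and Dkk2 in 11. That sum was also higher in every Otud1-/- library. Pairs across labels therefore match for any gene that is higher in every Otud1-/- library, and such matches show no likeness to smooth muscle. Within Otud1-/- the smooth muscle sum was lowest in Otud1-/- 1, where the 7 genes were highest. The size of the steps differed between genes with the same order. From wild type 1 to Otud1-/- 1 the level was 555-fold higher for Notum, 129.5-fold for Wif1, 69.4-fold for Nkd1, 11.1-fold for Znrf3, 7.42-fold for Rnf43 and 2.75-fold for Dkk3.

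The genes outside the list whose profiles lay nearest to Axin2 were Wipf3, Dyrk3, Evx1, Padi4 and Tex15. Their root mean square difference from Axin2, taken on log2 values centred on each gene's mean over the 6 libraries, was 0.14 to 0.20, against a median of 1.32 over 13154 genes. Among the inhibitors Znrf3 (0.28) and Rnf43 (0.47) were nearest to Axin2, and Notum (1.67) was farthest. Nearest to Notum were Notumos (0.20), Mt4 (0.24), the brachyury gene T (0.26), Sbspon (0.34) and the stem cell receptor gene Lgr5 (0.43), against a median of 2.82. Notumos shares exon bases with Notum on the opposite strand, so its likeness may rest on shared reads.

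Close relatives of the inhibitors, named after their values were seen, give a comparison within families. Axin1, the related Axin scaffold, had 988.3, 1041.1 and 1006.4 normalised reads across wild type 1 to 3, against 1032.6, 1091.2 and 983.9 across Otud1-/- 1 to 3. It was level across all 6 libraries (log2 change 0.03, 95% interval -0.20 to 0.26) where Axin2 was not, and the ratio of Axin2 to Axin1 differed between labels by 1.90 ± 0.84 SE on the log2 scale (exact permutation p = 0.1, the smallest possible). Nkd2 had 72.78, 77.12 and 68.32 across wild type 1 to 3, against 94.72, 172.1 and 158.4 across Otud1-/- 1 to 3. Its lowest library was wild type 3, and Otud1-/- 1 was the lowest of its label, as for Sfrp1. The ratio of Nkd1 to Nkd2 overlapped between the labels (difference 1.76 ± 1.43 SE, exact permutation p = 0.4). The Sfrp relative Frzb had 54.85, 51.73 and 37.73 against 75.95, 119.2 and 95.87, and the ratio of Sfrp1 to Frzb differed by -0.29 ± 0.23 SE (exact permutation p = 0.3). These 3 ratios and that of Sfrp1 to Sfrp2 (-0.39 ± 0.62 SE, exact permutation p = 0.6) are 4 comparisons, of which none can pass a threshold of 0.05 with 3 libraries a label.

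**Figure D4:**
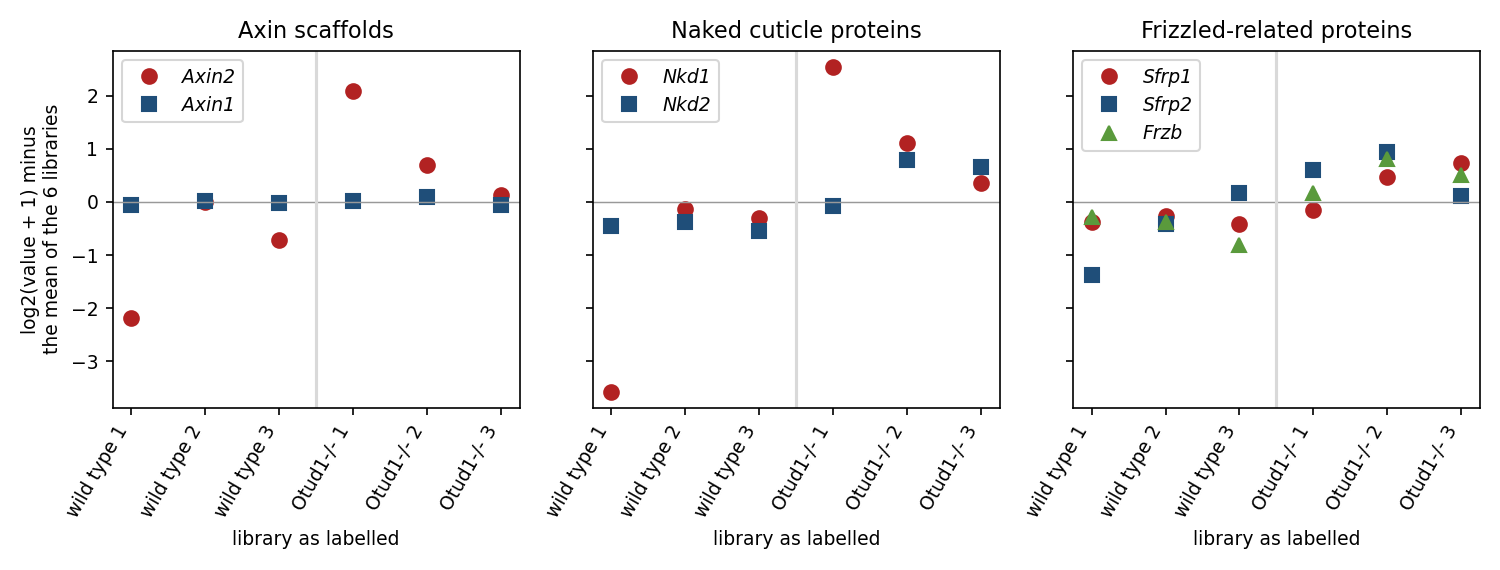
Log2(normalised read count + 1) minus the mean of the 6 libraries (vertical axis) in each library as labelled (horizontal axis) for Axin2 and Axin1, Nkd1 and Nkd2, and Sfrp1, Sfrp2 and Frzb, 1 point per library. Axin1 stays near 0 while Axin2 runs from wild type 1 at the bottom to Otud1-/- 1 at the top, and Nkd2 and Frzb are highest in Otud1-/- 2.

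Other inhibitors of the pathway were mixed. Of 34 listed, 31 were measured and 0 called, with 20 positive and 11 negative changes and a median of 0.07. At an unadjusted p under 0.05 (limma) 10 were higher and 2 lower, where 19.5% of all tested genes passed in either direction. The 2 lower were Draxin (log2 change -1.19, limma, adjusted p = 0.118) and Kremen2 (-0.47, limma, adjusted p = 0.206). The smallest p-values were those of Dact3, a Dishevelled-binding protein (149.8, 138.3 and 156 against 239.8, 425.2 and 298.7; log2 change 1.07, limma, adjusted p = 0.058), Trabd2b, a protease that inactivates Wnt proteins (32.7, 31.98 and 30.59 against 81.92, 78.75 and 61.56; 1.19, limma, adjusted p = 0.066), and Frzb (0.99, limma, adjusted p = 0.109). In the core of the destruction complex, named after its values were seen, the changes of Apc (95% interval -0.26 to 0.17) and Gsk3b (-0.20 to 0.34) were small, with Apc at 1770.7 ± 17.0 and 1717.5 ± 24.4 (SD, n = 3) and Gsk3b at 1237.6 ± 64.0 and 1302.7 ± 154.9 in wild type and Otud1-/-. The 3 Dickkopf and sclerostin genes Dkk1, Dkk4 and Sost were not analysed here.

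Genes that act with or below the pathway also differed among themselves. Of 21 measured Wnt target and stem cell genes, 20 had positive changes and 14 had labels that did not overlap, against 13.0% of all tested genes in that direction. In this list 0 were called (limma) and 10 were higher at an unadjusted p under 0.05, against 9.50% of all tested genes. The median of the list was 0.81. The smallest p-values were those of Rgmb (0.52), Myc (0.71) and Cdca7 (0.96; limma, adjusted p of 0.0982 to 0.11). Lgr5, the receptor of crypt base stem cells, had 3.16, 156.1 and 134.6 normalised reads across wild type 1 to 3, against 1051.3, 279 and 317.9 across Otud1-/- 1 to 3, so it too had wild type 1 lowest and Otud1-/- 1 highest (log2 change 3.35 ± 1.67 SE, limma, adjusted p = 0.356). The Lgr5 change was 1.64 without wild type 1 (limma, adjusted p = 0.349), and 1.03 ± 0.21 SE without wild type 1 and Otud1-/- 1, where it passed the test (limma, adjusted p = 0.0278). Of 19 receptors and agonists 1 was called (limma), against 0.282% of all tested genes called higher. This was the Frizzled gene Fzd2 (70.67, 92.17 and 83.62 against 192, 241.9 and 161.5; log2 change 1.25 ± 0.23 SE, limma, adjusted p = 0.0454). It lost its call when any single library other than Otud1-/- 1 was left out (limma, adjusted p of 0.065 to 0.175). Lgr4, which binds R-spondins and is related to Lgr5, had 3890.1, 3976.4 and 4715.1 against 3004.7, 2307.4 and 3024.4 (log2 change -0.60, limma, adjusted p = 0.0803; -0.25 after scaling to the epithelium list, limma, adjusted p = 0.523), and the log2 change of Fzd3 was 1.24 (limma, adjusted p = 0.0969).

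The R-spondins, the ligands that lead to removal of Rnf43 and Znrf3, were scarce. Rspo1 had 27.2 ± 3.55 normalised reads (SD, n = 3) in wild type and 18.6 ± 7.39 in Otud1-/-, Rspo2 had 4.58 ± 2.55 and 4.90 ± 1.93, and Rspo3 had 30.2 ± 14.5 and 64.8 ± 12.7. Of these Rspo3 had labels that did not overlap (log2 change 1.15 ± 0.36 SE, limma, adjusted p = 0.138). Of 15 measured Wnt ligands 0 were called (limma) and 12 were positive. At an unadjusted p under 0.05 (limma) 2 were higher, against 9.50% of all tested genes. Wnt16 and Wnt3 were at most 28.2 in any library, and Wnt6 was at 37.97, 201.3 and 197.8 against 722.8, 320.6 and 225 (limma, adjusted p = 0.331). Of the 10 core transducers 0 were called (limma). At an unadjusted p under 0.05 (limma) 1 was higher and 2 lower, where 19.5% of all tested genes passed in either direction. The smallest p-values of these 10 were those of Tcf7l2 (-0.47), Pygo1 (1.03) and Tcf7l1 (-0.44; limma, adjusted p of 0.116 to 0.243). With libraries scaled to the epithelium list, where the median of all genes was 0.36 in place of 0.02, the log2 changes were -0.12 for Tcf7l2 and -0.09 for Tcf7l1 (limma, adjusted p of 0.769 and 0.845).

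Markers of cell types also differed between the labels. In a bulk sample fewer cells of a type and less RNA per cell cannot be told apart. The 16 epithelial markers summed to 485792.8 to 576153.5 normalised reads in wild type and 312168.7 to 462684.1 in Otud1-/-. The libraries stood in the order of that sum in 2 or 3 of 15 pairs for each inhibitor. Pairs across labels could not match where an inhibitor was higher in every Otud1-/- library, since the epithelial sum was lower in each of them. Set against that sum, the 10 inhibitors held 3.09, 12.6 and 8.23 reads per 1000 epithelial reads across wild type 1 to 3, against 86.9, 25.2 and 21.6 across Otud1-/- 1 to 3. The labels could not overlap in this ratio. The summed inhibitors were at most 6133.0 in wild type and at least 7680.7 in Otud1-/-, and the epithelial sum was lower in every Otud1-/- library. All 15 smooth muscle markers had positive changes and 5 were called (limma), against 0.282% of all tested genes called higher. Their sums were 46238.1 to 50429.2 and 75831.1 to 151672.8, lowest within Otud1-/- in Otud1-/- 1. The number of these markers called was 0 with the replicate block, with limma without trend and robust, and without wild type 1, 2 or 3 or Otud1-/- 3 (14 or 15 still had an unadjusted p under 0.05). It was 1 with a mean of at least 5 or a pseudocount of 0.1, and 4 without Otud1-/- 2. It was 11 with quantile normalisation, and 13 with table total scaling or sample weights. With epithelium list scaling, without Otud1-/- 1, or without both wild type 1 and Otud1-/- 1, it was 14. Of all genes 4.23% were called higher with epithelium list scaling and 1.47% with table total scaling. Of the 15 enteric neuron and glia markers 14 had positive changes and 0 were called (limma). At an unadjusted p under 0.05 (limma) 2 were higher, against 9.50% of all tested genes. The sums of these markers did not overlap between the labels (1689.8 to 2065.3 and 2140.2 to 2679.3). Endothelial markers summed to 1895.6 to 2475.6 and 2112.9 to 3096.0. Fibroblast markers summed to 18707.7 to 20977.7 and 16588.6 to 24499.0, and the 12 leukocyte markers to 14609.6 to 19187.6 and 5244.8 to 8366.9.

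The Paneth cell list had the same ends of the range as the inhibitors. All 8 of its genes had positive changes and 0 were called (limma). At an unadjusted p under 0.05 (limma) 3 were higher, against 9.50% of all tested genes. The sum of the 8 was 2301.5, 4626.3 and 4710.0 across wild type 1 to 3, against 23065.7, 7350.7 and 7978.4 across Otud1-/- 1 to 3. Mmp7 is in this list and in the Wnt target list, and held 4923.9 of the sum in Otud1-/- 1. The defensin genes Defa17 and Defa22 were listed at 0 in at least 1 library. The 8 measured markers of anal canal squamous epithelium summed to 1057.1 to 1441.8 and 782.1 to 1953.4, with Krt4 listed at 0 in 1 library and Trp63 and Ivl not analysed here. The part of these cell types in the levels of the inhibitors was not tested.

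**Figure D5:**
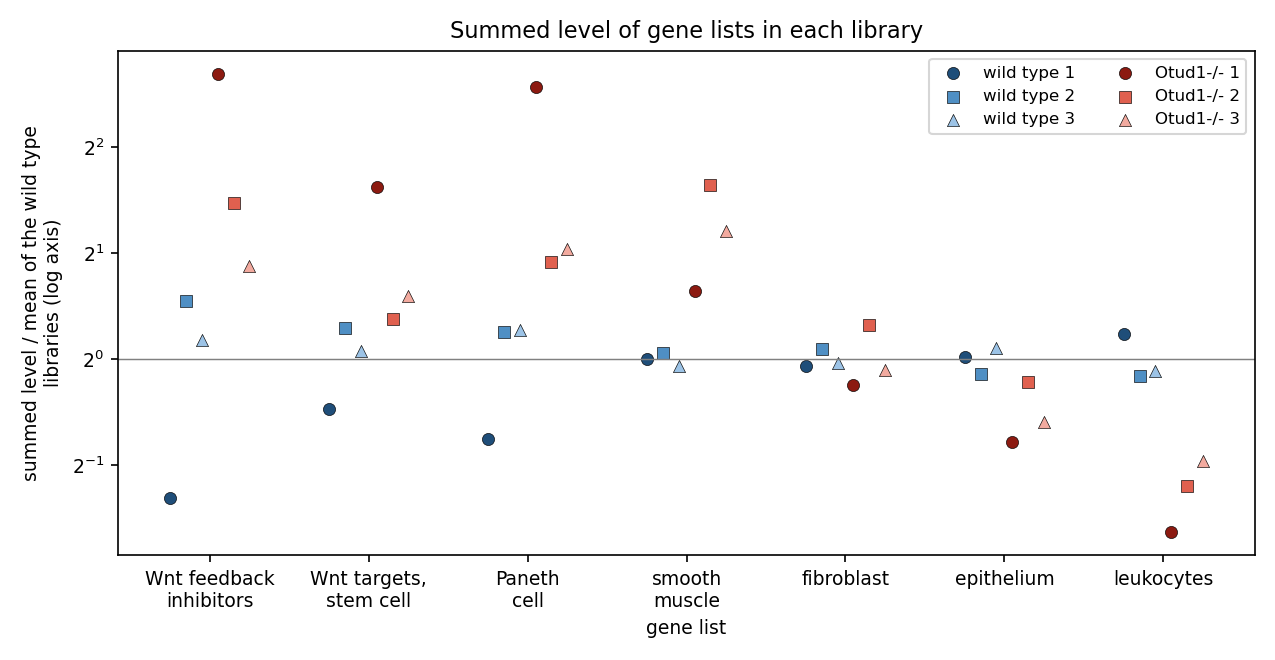
Summed normalised read count of 7 gene lists in each library, divided by the mean of the wild type libraries (log axis), 1 point per library as labelled. The Wnt feedback inhibitors, the Wnt targets and the Paneth cell list share wild type 1 at the bottom and Otud1-/- 1 at the top. Smooth muscle is highest in Otud1-/- 2, and epithelium and leukocytes are lower in every Otud1-/- library than in every wild type library.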

How the data were processed

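RNA sequencing libraries of distal colon, 3 labelled wild type and 3 labelled Otud1-/-, were grouped by the sample titles. The authors deposited 1 table of normalised signal values. The build named in the submitters' processing notes is mm10. No aligner, counter, strand setting or annotation is given in the sources used here. In each library 100% of values were whole multiples of 1 step (within 0.001), and a value is called a normalised read count. IDs were matched without version to GENCODE M21 (GRCm38): 21317 of 21374 matched. The test was limma 3.58.1 (R 4.3.3; trend and robust) on log2(value + 1), two-sided, on 21281 genes with at least 1 in at least 3 libraries, with Benjamini-Hochberg adjustment over all of them. It was also run on simulated reads with the same scatter for every gene and no outlying library. That run does not cover the spread within labels seen for most of the inhibitors. Changes are on the log2(value + 1) scale, which understates those of genes with few reads.

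The genes and lists were chosen with earlier results of these data known. Named genes were all 10 inhibitors, Otud1, Lgr5, the R-spondins, up to 3 genes per pathway list with the smallest p, and the 5 genes nearest to Axin2 and to Notum with a mean of at least 50, passing over unnamed symbols. Promoters came from RefSeq.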

Additional observations from a re-analysis of the deposited data

How the results depend on the processing

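Over 18 alternative settings the 180 log2 changes of the 10 inhibitors were all positive. Of these 174 kept their side of the threshold and 6 newly passed it. Some settings left the log2 changes as in the main fit, so their signs add nothing. They were no filter, a mean of at least 5, renewed median-of-ratios scaling, limma without trend and robust, and the replicate block. The count of called inhibitors, 0, became 2 without wild type 1 and Otud1-/- 1 together (Notum and Sfrp1), 2 after scaling to the epithelium list (Dkk3 and Sfrp1) and 1 after scaling to the table total (Dkk3), and was 0 to 1 without single libraries. These scalings moved the median of all genes from 0.02 to 0.36 and 0.22. The median change of the inhibitors, 2.17, was 0.77 without both libraries and 1.26 to 2.79 without single ones. Otud1 passed without both libraries (1.89), after scaling to the epithelium list (1.72) and with sample weights (1.59), and was 1.14 to 1.78 without single libraries. Calls in the 5 other pathway lists, 1, became 5 without both libraries, 2 with sample weights, 4 when scaled to the table total and 18 when scaled to the epithelium list. Over all genes the calls, 202 of 21281, became 394 of 20687 without both libraries. With sample weights, table total scaling and epithelium scaling they became 564, 416 and 1021 of 21281. The pathway calls became 0 with limma without trend and robust, a mean of at least 5, a pseudocount of 0.1, quantile normalisation or the replicate block. There 0 to 153 genes of the whole table were called. Without single libraries the pathway calls were 0 to 3, where 10 to 340 genes of the whole table were called. The Rspo2 change, 0.12, reversed to -0.11 after quantile normalisation and was -0.13 to 0.47 without single libraries. The cause of these shifts was not tested.

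With the replicate number as a block 0 inhibitors were called, and over all genes 18 against 202. Same-numbered libraries did not deviate together (correlations of -0.264, -0.100 and -0.088), and none correlated best with its own number. The planned edgeR and DESeq2 alternatives were not run, although all 6 libraries gave whole reads, so their calls are not known here.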

Other observations

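A few genes already counted in the lists above, chosen after their values were seen, had the same ends of the range. The Wnt ligand gene Wnt10a had 3.16, 74.3 and 53.02 normalised reads across wild type 1 to 3, against 352.4, 102.4 and 91.83 across Otud1-/- 1 to 3. The transcription factor gene Sp5, a target of beta-catenin, had 1.05, 128.8 and 198.8 across wild type 1 to 3, against 722.8, 247.5 and 159.4 across Otud1-/- 1 to 3, and here the labels overlapped. Amer2, which binds Apc, had 9.49, 45.14 and 37.73 against 128, 69.75 and 55.5 (log2 change 1.59 ± 0.59 SE, limma, adjusted p = 0.202). The matrix protease gene Mmp7, counted in both the Wnt target and the Paneth cell list, had 7.38, 599.1 and 586.3 against 4923.9, 717.7 and 877. None of these 4 was called.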
